A study of Mus musculus with 6 samples.

Results

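Axon guidance ligands and receptors were followed in N2a cells, a mouse neuroblastoma line, after an siRNA against the circular RNA circRtn4. The genes were taken from the deposited gene table by biotype (protein-coding) and by name: the semaphorins, plexins, neuropilins, ephrins, Eph receptors, Slits, Robos, netrins and Unc5 receptors, with Dcc and Draxin. The rule reads names and biotypes and not expression values, though it was chosen with earlier results of these data known. It gave 73 of the 54532 genes listed, 22046 of which are protein-coding. Of these 73, 2 matched by name only: Unc50, a Golgi membrane protein, and Unc5cl, a death domain protein, neither of which is known as a guidance receptor.

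The 3 si-NC libraries came from N2a cells transfected with the control siRNA, and the 3 si-circRtn4 libraries from N2a cells transfected with the siRNA against circRtn4. Both groups were of this 1 line, labelled as strain C57BL/6, and both were transfected. The labels name growth medium with fetal bovine serum and no differentiation, whereas the study's methods say that transfected N2a cells were moved to differentiation medium with retinoic acid before harvest. The methods do not say this of the sequenced cells in particular, and the conflict was not settled here. The labels do not say that the libraries came from separate cultures, so the p-values measure only the spread between these libraries, which may be technical.

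Guidance cues are secreted or membrane-bound proteins that growth cones read through receptors on their surface. Semaphorins act through plexins, with neuropilins as co-receptors for most of the secreted class 3 members. Ephrins bind Eph receptor tyrosine kinases, Slits bind Robo receptors, and netrin-1 attracts axons through Dcc and repels them through Unc5 receptors. The same families guide neural crest cells, from which neuroblastoma derives.

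Each library held 14100818 to 14748929 reads on genes in si-NC and 13541198 to 15122063 in si-circRtn4. Of 15 markers of noradrenergic neuroblastoma and neurons, 12 averaged at least 1 FPKM (fragments scaled by gene length and library size), Nefl was listed at 0, and Nefm stayed at or below 0.0229 FPKM. Their summed level was 1310 to 1392 FPKM in si-NC and 823 to 1128 FPKM in si-circRtn4, so it was lower in each si-circRtn4 library. Of the 15 markers, 6 were lower in every si-circRtn4 library (Chga at 238 to 279 against 78.7 to 90.6 FPKM, for example), and 1, Mycn, was higher in every one (12.6 to 15.9 against 18.5 to 27.6 FPKM). Their part in the results below was not tested. None of 7 fibroblast, 5 immune and 4 endothelial markers averaged 1 FPKM (sums of at most 0.786, 1.38 and 0.921 FPKM in any library). Of 8 Schwann cell and glia markers, 2 did (Mbp and Erbb3), and the sums were 7.16 to 9.004 FPKM in si-NC and 6.19 to 8.14 FPKM in si-circRtn4. The table counts reads per gene, so circRtn4 itself was not measured. The Rtn4 gene stood at 65.9 ± 4.49 FPKM (SD, n = 3) in si-NC and 56.5 ± 6.32 FPKM in si-circRtn4, a log2 difference of -0.22 (SE 0.10, adjusted p = 0.216 by limma, and 0.0447 with replicate number as a block). The study places the chromatin remodeler Chd5 downstream of circRtn4. Chd5 fell from 10.4 ± 1.22 to 3.83 ± 0.262 FPKM (adjusted p = 0.0014).

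Unc5a, a netrin receptor, changed most among the 38 genes tested, falling in si-circRtn4 cells to 48.3% of its si-NC mean. The semaphorin Sema6d and the plexin Plxnc1 rose to 144% and 140% of their si-NC means, and the receptors Epha10 and Plxnd1 fell to 58.5% and 69.3%. These 5 genes were called, of the 38 tested (those that averaged 1 FPKM or more). The 38 include Unc50, which matched by name only and was not called. The test was limma on log2(FPKM + 1), with the libraries unpaired. Its p-values were adjusted over all 12749 genes tested, with a call at an adjusted p under 0.05. Differences on this scale understate the change of genes near 1 FPKM. The 2 genes called higher made 5.26% of the tested members, where 4.36% of all genes tested were called higher, and the 3 called lower made 7.89%, where the share over all genes was 4.82%. Both counts are small, and the shares are close to those over all genes. The median log2 difference of the 38 members was -0.07, with 18 above and 20 below 0, and that of all genes tested was 0.00. With the values rescaled as TPM (summing to the same total in each library), the median of the members was 0.02 and that of all genes 0.09. That scaling also took the share of higher genes among all calls from 47.5% to 71.2%. With the single gene Gm23935 left out of the total, that share was 52.4%, and the medians were -0.05 for the members and 0.02 for all genes. Gm23935 held 20.1% to 20.7% of the summed FPKM in si-NC and 13.5% to 18.8% in si-circRtn4. In bulk samples, fewer cells of a type and less RNA per cell cannot be told apart.

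In these data the libraries of equal replicate number resembled each other, a pairing that the test above left out. With replicate number as a block, 2 members (5.26%) were called higher and 8 (21.1%) lower, where 9.29% and 9.75% of all genes were. The 5 members added as lower were Plxna1, Plxnb2, Sema4b, Sema4d and Unc5c. Counted by library values alone, 3 members had every si-circRtn4 library above every si-NC library and 9 had every one below, 7.89% and 23.7% of those tested. Over all genes tested, these shares were 16.2% and 15.5%. Of the 38 intervals in the plot of changes, 13 (34.2%) left out 0 before any adjustment, where 25.9% of all genes tested had an unadjusted p under 0.05.

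**Figure D1:**
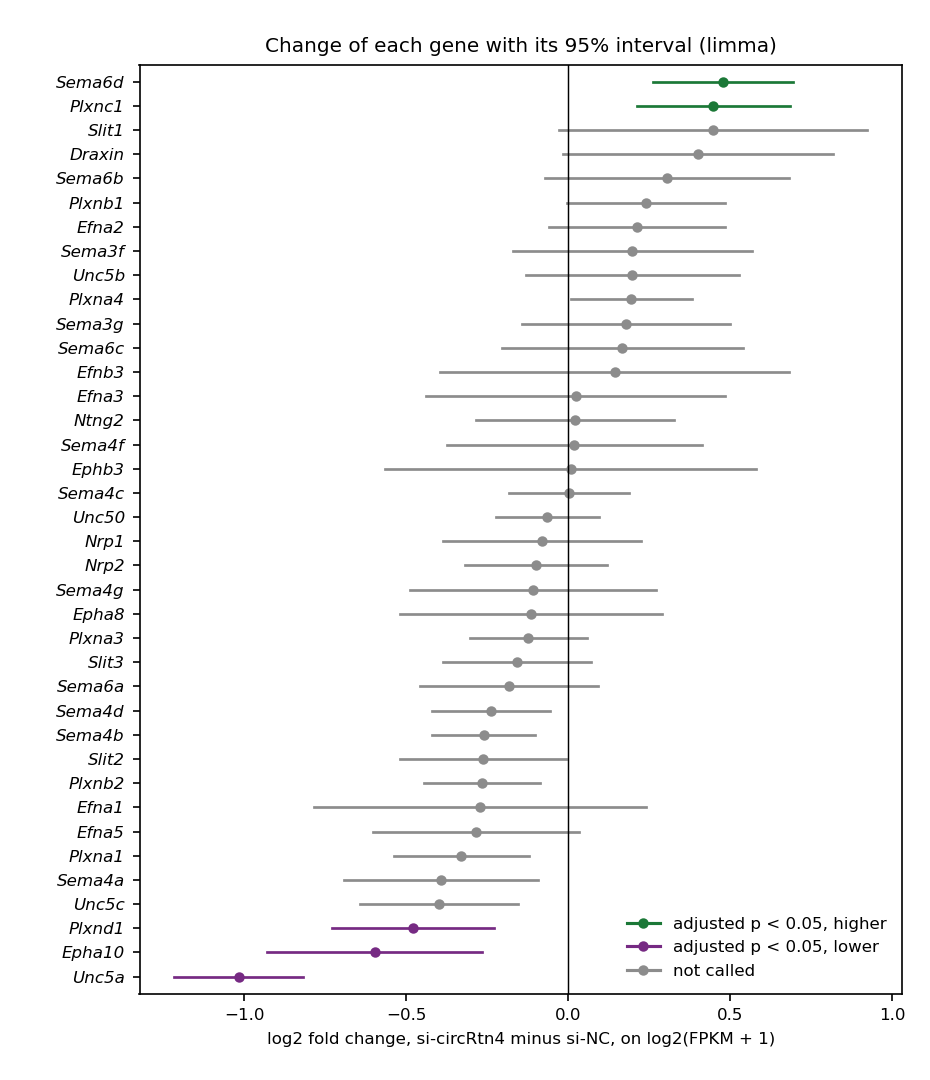
Log2 difference of each of the 38 tested genes (si-circRtn4 minus si-NC, on log2(FPKM + 1)) with its 95% interval from limma, ordered by size. Green marks the 2 genes called higher (Sema6d 0.48 and Plxnc1 0.45), purple the 3 called lower (Plxnd1 -0.48, Epha10 -0.60 and Unc5a -1.02), and gray the genes not called.

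The study places circRtn4 upstream of miR-24-3p, so sites that could pair with this miRNA were looked for in the 3′ UTRs of the tested genes, taking the longest one annotated. The same was done for the guide strand of the siRNA, taken as the reverse complement of the strand the study lists. The miRNA and both siRNA strands are shown 5′ to 3′, because their bases 2 to 8 (the seed, in capitals in the miRNA and the guide) set the sites searched for, CTGAGCC and ACCCTTT.
miR-24-3p: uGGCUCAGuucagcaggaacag
si-circRtn4 guide: aAAAGGGTctcatctgaag
si-circRtn4 listed strand: cttcagatgagaccctttt

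The miRNA sequence is that of RefSeq. CTGAGCC was present in 20 of the 38 tested members (52.6%) and in 2090 of 10688 tested genes with an annotated 3′ UTR (19.6%). Members held 0.299 such sites per kilobase and all these genes 0.151, with median UTR lengths of 1381.5 and 1170 bases. Of the 5 called genes, 4 held 1 such site each, and Plxnd1 held none. The sites are shown with the bases around them on the transcript strand (capitals mark the 7 bases), since these are the called genes, and all lie in annotated 3′ UTRs.
Unc5a, chr13:55005240-55005246 (+): tggagcctgggCTGAGCCcagcccatctgt
Epha10, chr4:124916159-124916165 (+): agtacgggagcCTGAGCCagtgggtagtgt
Sema6d, chr2:124667093-124667099 (+): aaggaaggctcCTGAGCCagtcaggcggag
Plxnc1, chr10:94791439-94791445 (-): aaacgcaaaggCTGAGCCacagctttagct

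In Epha10, Sema6d and Plxnc1 the 7 bases are followed by an A (an 8mer site), and in Unc5a by a C. Genes with the site moved in both directions: 2 of the 20 were called higher and 2 lower, with a median log2 difference of -0.04 and 10 genes on each side of 0. With the replicate block, 2 of the 20 were called higher and 5 lower (25.0%), and 10.3% and 11.1% of the 2090 genes with the site were. The 18 members without it had a median of -0.07. The 9 members with an 8mer site had a median of 0.21, with 6 above and 3 below 0. Among the 10688 tested genes with an annotated 3′ UTR, the 933 with one had a median of 0.02.

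The guide's site ACCCTTT was present in 9 of the 38 members (23.7%) and in 1336 of the 10688 genes (12.5%), and an 8mer of it in 0 members and 265 genes (2.48%). None of the 5 members called without the block held it. With the replicate block, 4 of the 9 (Plxna1, Plxnb2, Sema4b and Sema4d) were called lower (44.4%), where 17.7% of the 1336 genes with the site were. The 9 members with it had a median log2 difference of -0.24, with 2 above and 7 below 0, and the 29 without it 0.01. Over the 10688 genes, the medians were -0.05 with the site and 0.01 without. A match describes letters in the UTR and not a tested site.

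**Figure D2:**
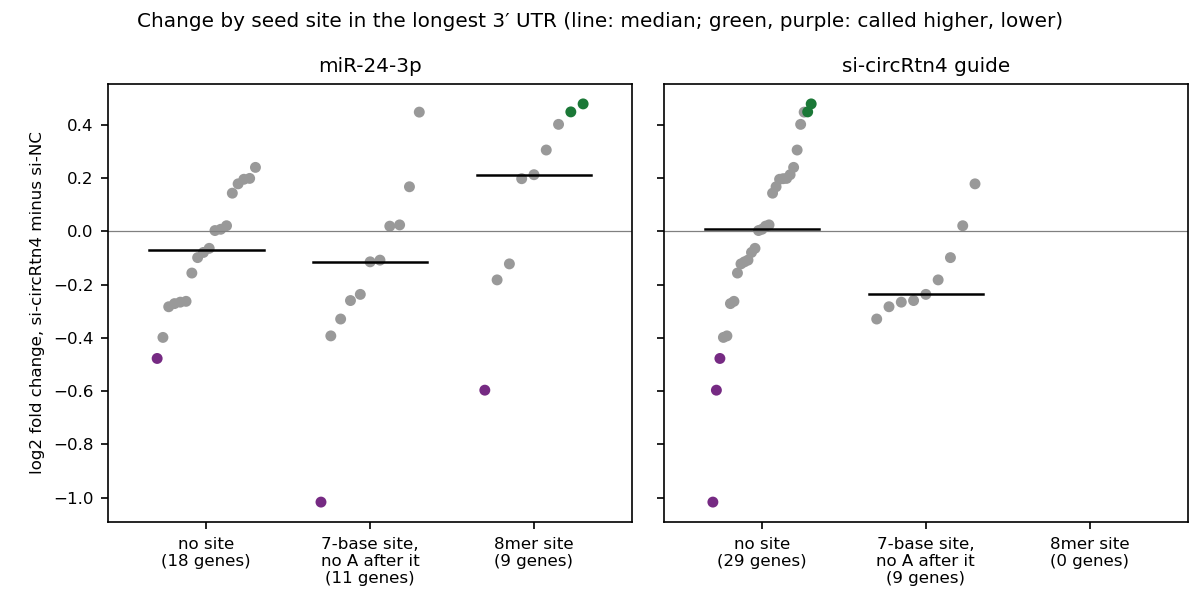
Log2 difference (si-circRtn4 minus si-NC) of the 38 tested genes, grouped by whether the longest 3′ UTR held the 7-base site or the 8mer site of miR-24-3p (left) or of the siRNA guide (right). Each point is a gene, lines are medians, and green and purple mark genes called higher and lower. The 9 genes with an 8mer of miR-24-3p hold 2 called higher and 1 called lower, and the 9 genes with the guide's site hold none, whereas 4 of those 9 were called lower with the replicate block.

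The netrin receptors were the most strongly expressed group after the plexins. Unc5a, whose product is a receptor for repulsion by netrins, had 57.3, 53.4 and 47.2 FPKM in si-NC and 25.2, 25.2 and 25.9 FPKM in si-circRtn4. The lowest si-NC library thus stood well above the highest si-circRtn4 library. The means were 52.6 ± 5.08 and 25.4 ± 0.419 FPKM (SD, n = 3), a log2 difference of -1.02 (SE 0.085, adjusted p = 0.0015). The call was kept in all 16 alternatives (adjusted p 6.18e-05 to 0.0145), including each fit without 1 library. These values rest on 9569 reads in si-NC and 4697 in si-circRtn4. The gene lies at chr13:54949411-55006018 in GRCm38, on the plus strand, and 0.816% of its exon bases overlap another gene.

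Its paralogs were not called without the block. Unc5b, another abundant netrin receptor, had 51.2, 35.8 and 43.3 FPKM in si-NC and 56.6, 46.6 and 45.8 FPKM in si-circRtn4. The 2 groups overlapped, and the log2 difference was 0.20 (95% interval -0.13 to 0.53, adjusted p = 0.433). Unc5c had 11.1, 12.7 and 13.5 FPKM in si-NC and 8.88, 8.30 and 10.3 FPKM in si-circRtn4. Each si-circRtn4 library of Unc5c lay below each si-NC library, with a log2 difference of -0.40 (SE 0.10). The adjusted p was 0.0561, so Unc5c was not called. It was called in 5 alternatives: with replicate number as a block (0.0211), by limma-voom (0.0151), with a mean of at least 5 FPKM (0.0404), after quantile normalization (0.0498) and without si-NC 1 (0.0487). Over its 16 alternatives the adjusted p ran from 0.0151 to 0.162. Unc5d stood at 0.0575 FPKM or less in every library. The difference between the responses of Unc5a, Unc5b and Unc5c was not itself tested.

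Dcc and the secreted netrins were scarce. Dcc, the receptor for attraction by netrin-1, was listed at 0 in all 6 libraries, where the limit that a count of 0 allows (3 reads) is 0.0239 to 0.0266 FPKM in a library, counting error only. The deposited length of Dcc is 8067 bases, against 13171 exon bases in GENCODE M21. The 0 and its limit therefore hold for the shorter gene model. Ntn1, the gene of netrin-1, had 0.137, 0.221 and 0.171 FPKM in si-NC and 0.0448, 0.0205 and 0 FPKM in si-circRtn4. Those values are 48 reads in si-NC and 6 in si-circRtn4, and the groups did not overlap. Ntn1 was below the filter and is named after its values were seen. Fitted without a filter it had an adjusted p of 0.076, and the two-sided exact permutation test gave 0.1, the smallest that 3 against 3 libraries allow. Ntn5 reached 0.127 FPKM at most and Ntn4 was listed at 0.

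Draxin, a secreted repellent that binds Dcc and netrin-1, had 1.503, 0.960 and 0.879 FPKM in si-NC and 2.34, 1.67 and 1.39 FPKM in si-circRtn4. The groups overlapped, with a log2 difference of 0.40 (SE 0.18, adjusted p = 0.207). Ntng2, the gene of netrin-G2, a membrane-anchored netrin that binds none of these receptors, was the abundant member of the netrin family. It had 26.1, 23.9 and 21.8 FPKM in si-NC and 29.3, 23.5 and 20.6 FPKM in si-circRtn4, which overlapped fully. Its log2 difference was 0.02 (95% interval -0.28 to 0.33, adjusted p = 0.945), and 14.0% of its exon bases overlap another gene. Summed over Unc5a to Unc5d, Dcc and Draxin, the level was 110 ± 10.0 FPKM in si-NC and 86.1 ± 6.11 FPKM in si-circRtn4. Within that sum, Unc5a went from 52.6 to 25.4 FPKM, Unc5b from 43.4 to 49.7 FPKM and Unc5c from 12.4 to 9.17 FPKM.

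**Figure D3:**
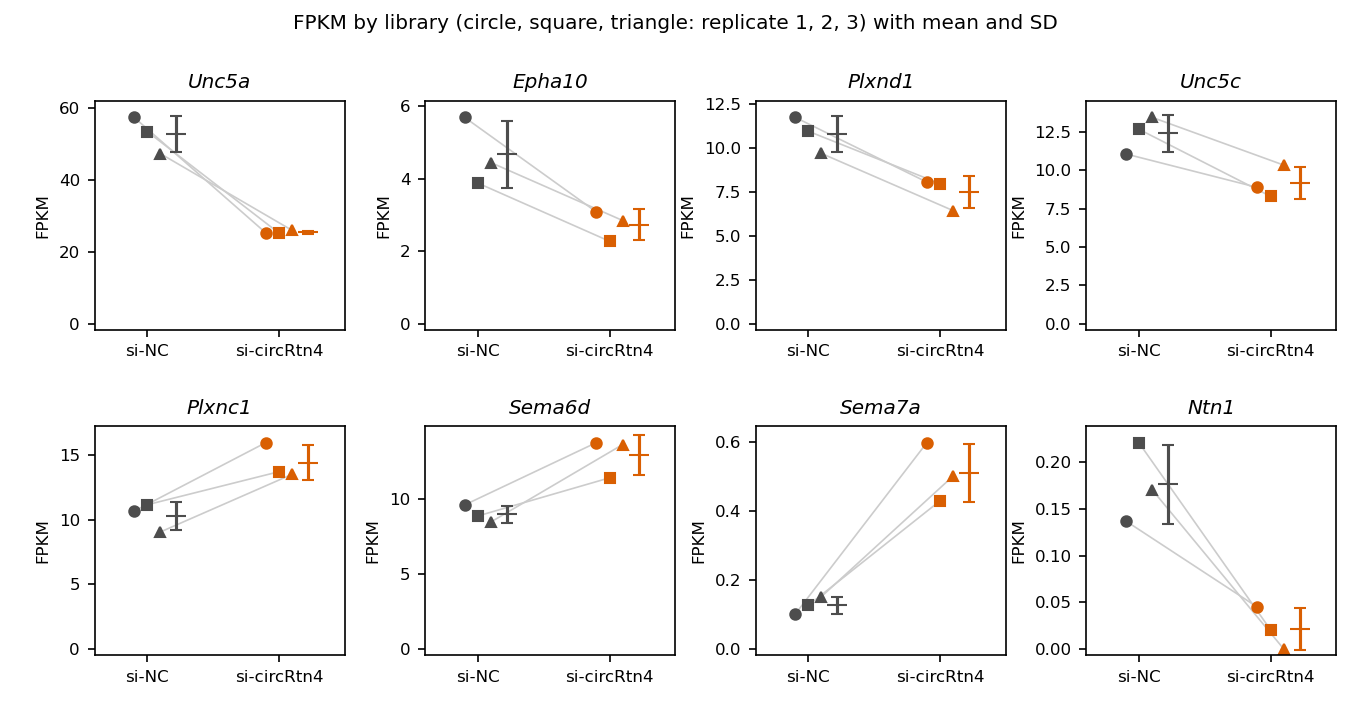
FPKM of 8 genes in each library (circle, square and triangle are replicates 1, 2 and 3, gray lines join equal replicate numbers, and bars give the mean and SD of 3 libraries). The groups of all 8 genes stand apart. Unc5a, Epha10, Plxnd1, Plxnc1 and Sema6d were called, Unc5c was not (adjusted p = 0.0561), and Sema7a and Ntn1 were below the filter.

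Of the 20 semaphorins, 12 were tested and 1 was called. Sema6d, a transmembrane semaphorin that binds A-type plexins, had 9.63, 8.89 and 8.49 FPKM in si-NC and 13.8, 11.4 and 13.7 FPKM in si-circRtn4. All 3 si-circRtn4 libraries were higher. The means were 9.01 ± 0.578 and 12.97 ± 1.32 FPKM (SD, n = 3), a log2 difference of 0.48 (SE 0.093, adjusted p = 0.0219). The call was lost in 4 of the 6 fits without 1 library (si-NC 2, si-NC 3, si-circRtn4 1 or si-circRtn4 3), and the adjusted p over those 6 ran from 0.0283 to 0.0806. It was also lost with no filter on low genes. The gene lies at chr2:124089969-124667770 (plus strand), and its UTR holds the miR-24-3p 8mer shown above.

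Among the class 4 semaphorins, which are membrane-bound and act mostly through B-type plexins, Sema4c was the most abundant. It had 21.8, 18.9 and 20.6 FPKM in si-NC and 20.4, 19.6 and 21.4 FPKM in si-circRtn4. The groups overlapped, and the log2 difference was 0.00 (95% interval -0.18 to 0.19, adjusted p = 0.986). Sema4a had 2.49, 2.23 and 2.01 FPKM in si-NC and 1.21, 1.47 and 1.74 FPKM in si-circRtn4. Those groups stood apart, with a log2 difference of -0.39 (SE 0.13) that was not called (adjusted p = 0.104, and 0.0461 to 0.255 over its alternatives). It was called only by limma-voom on the recovered reads.

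Sema4b and Sema4d also had every si-circRtn4 library below every si-NC library. Sema4b had 9.53, 8.82 and 8.94 FPKM in si-NC and 7.41, 7.48 and 7.40 FPKM in si-circRtn4, a log2 difference of -0.26 (adjusted p = 0.0571, and 0.0372 with the block). Sema4d, a known ligand of plexin B1, had 15.2, 16.0 and 17.4 FPKM in si-NC and 13.04, 13.4 and 14.3 FPKM in si-circRtn4, a log2 difference of -0.24 (adjusted p = 0.106, and 0.0351 with the block). Neither was called without the block. The other 5 membrane-bound semaphorins tested (Sema4f, Sema4g, Sema6a, Sema6b and Sema6c) overlapped between the groups, with log2 differences of -0.18 to 0.31.

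Sema7a, a membrane-anchored semaphorin and the known ligand of plexin C1, is named after its values were seen because its groups stood apart below the filter. It had 0.1004, 0.126 and 0.152 FPKM in si-NC and 0.597, 0.429 and 0.501 FPKM in si-circRtn4. Those are 18 reads in si-NC and 74 in si-circRtn4, a ratio of the mean levels of 4.03. It was called higher only when all 28442 genes above 0 were tested (adjusted p = 0.0429), and the exact permutation test gave 0.1. Of the class 3 semaphorins, Sema3f led with 3.62, 2.56 and 2.21 FPKM in si-NC and 3.95, 3.09 and 2.95 FPKM in si-circRtn4. These overlapped, with a log2 difference of 0.20 (95% interval -0.17 to 0.57, adjusted p = 0.484). Sema3g lay between 1.503 and 2.59 FPKM, Sema3b at or below 0.374, Sema3a and Sema3c had 1 read each, and Sema3d and Sema3e were listed at 0.

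The plexins, the signaling receptors of the semaphorins, summed to 134 ± 7.90 FPKM in si-NC and 123 ± 0.873 FPKM in si-circRtn4, and 7 of 9 were tested. Plxnc1 had 10.7, 11.2 and 9.07 FPKM in si-NC and 16.0, 13.7 and 13.5 FPKM in si-circRtn4. All 3 si-circRtn4 libraries were higher. The means were 10.3 ± 1.10 and 14.4 ± 1.36 FPKM (SD, n = 3), a log2 difference of 0.45 (SE 0.10, adjusted p = 0.0357). The call was lost in each of the 6 fits without 1 library (adjusted p 0.0635 to 0.0985) and with no filter (0.101). The gene lies at chr10:94790866-94944835 on the minus strand. The ligand of plexin C1, Sema7a, at 0.317 FPKM on average, also stood higher in every si-circRtn4 library. For Sema6d and Sema4d, the plexins of the matching type went both ways. Sema6d rose (0.48), and the A-type plexins tested were lower or higher (Plxna1 -0.33, Plxna3 -0.12 and Plxna4 0.20). Sema4d had a log2 difference of -0.24, and the B-type plexins tested had 0.24 (Plxnb1) and -0.27 (Plxnb2). Of these genes, only Sema6d was called without the block. Whether ligands and receptors change together was not tested.

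Plxnd1, a receptor for Sema3e in vessels and axons, had 11.7, 10.9 and 9.68 FPKM in si-NC and 8.05, 7.96 and 6.43 FPKM in si-circRtn4. All 3 si-circRtn4 libraries were lower. The means were 10.8 ± 1.04 and 7.48 ± 0.912 FPKM (SD, n = 3), a log2 difference of -0.48 (SE 0.11, adjusted p = 0.0349). Among the 6 fits without 1 library the call was kept only without si-NC 3 (adjusted p 0.0478), and was lost up to 0.112 in the others. It was also lost under TPM scaling and with no filter. The gene lies at chr6:115954811-115995005 on the minus strand, and its ligand Sema3e was listed at 0.

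Plxna1, a receptor for class 3 and class 6 semaphorins, was the most abundant plexin. It had 41.7, 38.0 and 33.6 FPKM in si-NC and 30.7, 29.4 and 29.2 FPKM in si-circRtn4. The groups stood apart, with a log2 difference of -0.33 (SE 0.09). The adjusted p was 0.0632, and 0.025 with the block and 0.0481 without si-NC 3. Over its alternatives it ran from 0.025 to 0.176, and 10.7% of the exon bases of Plxna1 overlap another gene. Plxnb2 had 37.1, 34.7 and 32.5 FPKM in si-NC and 27.4, 29.9 and 28.8 FPKM in si-circRtn4, a log2 difference of -0.27 (adjusted p = 0.0743, and 0.0489 with the block). Plxna4 was higher in each si-circRtn4 library by a narrow gap (15.2, 17.4 and 15.9 FPKM against 17.7, 18.5 and 19.7 FPKM), a log2 difference of 0.20 that was not called (adjusted p = 0.177). Plxna3 and Plxnb1 overlapped between the groups, and Plxna2 and Plxnb3 had 4 and 6 reads in all.

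The neuropilins, which bind class 3 semaphorins and VEGF, were both expressed. Nrp2 had 21.4, 19.9 and 19.6 FPKM in si-NC and 21.5, 17.5 and 17.9 FPKM in si-circRtn4. The groups overlapped, with a log2 difference of -0.10 (95% interval -0.32 to 0.12, adjusted p = 0.566). Nrp1 lay between 12.6 and 17.8 FPKM in all libraries, with an adjusted p of 0.756.

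**Figure D4:**
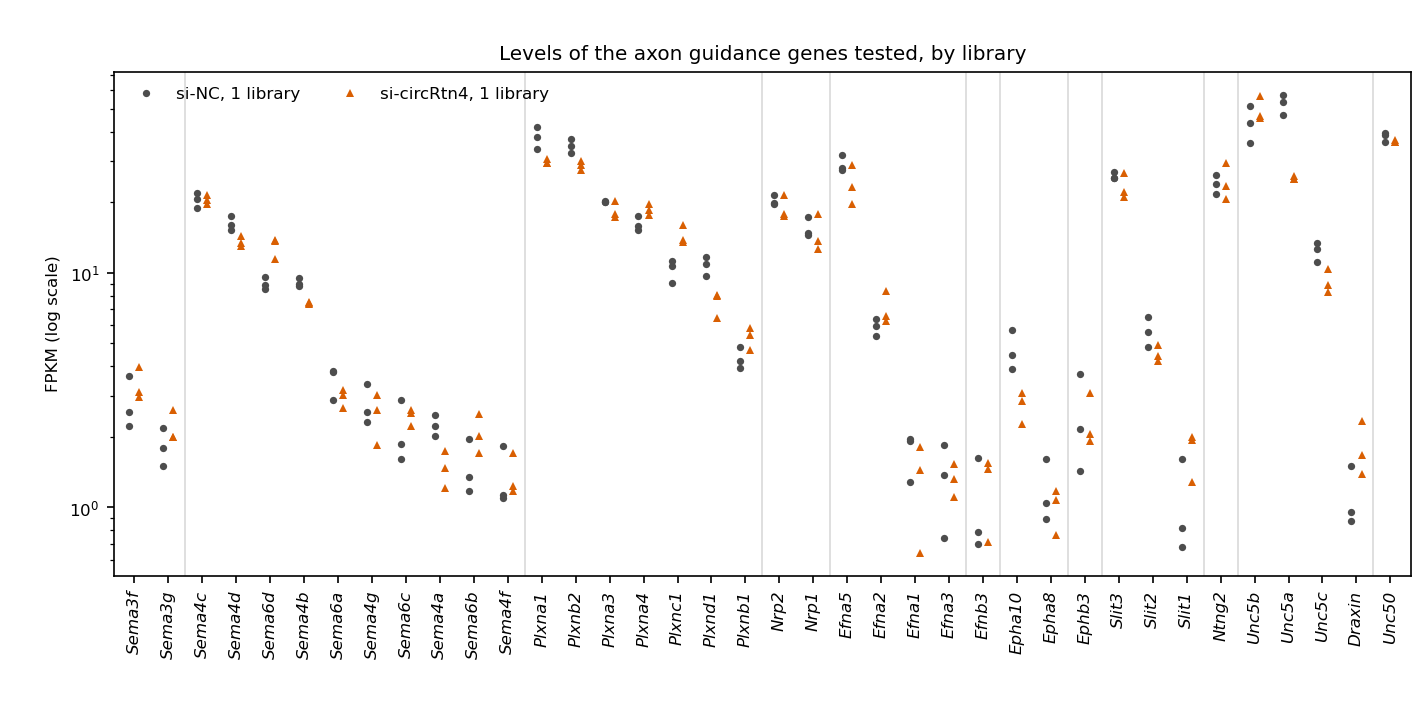
FPKM (log scale) of the 38 tested genes in each library, with si-NC as gray circles and si-circRtn4 as orange triangles. Gray lines part the families. Unc5a is the gene whose groups lie furthest apart, and levels within most other genes overlap or nearly meet.

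The 3 Slits were expressed with almost no Robo RNA beside them. Slit3, a secreted repellent, had 26.9, 25.3 and 25.3 FPKM in si-NC and 20.9, 22.01 and 26.6 FPKM in si-circRtn4. The groups overlapped through si-circRtn4 3, and the log2 difference was -0.16 (95% interval -0.39 to 0.07, adjusted p = 0.368). Slit1 had 1.61, 0.820 and 0.676 FPKM in si-NC and 1.95, 1.997 and 1.29 FPKM in si-circRtn4, a log2 difference of 0.45 (SE 0.20, adjusted p = 0.218) with overlapping groups. Slit2 lay between 4.20 and 6.46 FPKM (log2 difference -0.26, adjusted p = 0.184). Robo3, a Robo that in mammals binds Slits poorly, was the highest of the 4 Robo genes, with 0.193, 0.213 and 0.136 FPKM in si-NC and 0.123, 0.169 and 0.151 FPKM in si-circRtn4. All 4 were below the filter: Robo1 and Robo2 had 8 and 9 reads in all and Robo4 none. Summed, the Slits stood at 32.5 ± 0.898 and 29.4 ± 2.99 FPKM and the Robos at 0.188 ± 0.0344 and 0.164 ± 0.0320 FPKM.

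Among the ephrins, the membrane-bound ligands of Eph receptors, Efna5 was the most abundant. It had 28.0, 27.5 and 31.9 FPKM in si-NC and 23.3, 19.7 and 28.9 FPKM in si-circRtn4. The groups overlapped, with a log2 difference of -0.28 (95% interval -0.60 to 0.03, adjusted p = 0.242). Efnb3 led the ephrins-B at 1.62, 0.784 and 0.696 FPKM in si-NC and 1.55, 1.45 and 0.713 FPKM in si-circRtn4. These overlapped as well (log2 difference 0.14, 95% interval -0.40 to 0.68, adjusted p = 0.751). Efna1, Efna2 and Efna3 were tested and not called, and Efnb1 was listed at 0.

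Of the 14 Eph receptors, 3 were tested. Epha10, an Eph receptor whose kinase domain is thought to be inactive, had 5.69, 3.88 and 4.44 FPKM in si-NC and 3.08, 2.27 and 2.85 FPKM in si-circRtn4. Every si-circRtn4 library was lower than every si-NC library. The means were 4.67 ± 0.928 and 2.73 ± 0.416 FPKM (SD, n = 3), a log2 difference of -0.60 (SE 0.14, adjusted p = 0.0421). The call was lost in each of the 6 fits without 1 library (adjusted p 0.0588 to 0.124), under TPM scaling and with no filter. The gene lies at chr4:124880899-124917800 on the plus strand.

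Ephb3, the most abundant EphB receptor, had 3.69, 2.15 and 1.43 FPKM in si-NC and 3.08, 1.93 and 2.06 FPKM in si-circRtn4, which overlapped fully. Its log2 difference was 0.01 (95% interval -0.57 to 0.58, adjusted p = 0.989). Epha8 lay between 0.763 and 1.62 FPKM (adjusted p = 0.737). The summed EphA level was 6.39 ± 1.39 FPKM in si-NC and 4.27 ± 0.689 FPKM in si-circRtn4. Most of that sum was Epha10 (4.67 and 2.73 FPKM), and Epha1 had 0.488 and 0.490 FPKM. The ephrins-A summed to 38.5 ± 2.39 and 34.3 ± 4.55 FPKM. Epha2, Epha4 and Epha5 were listed at 0 in all libraries. Of the 73 genes, 35 were below the filter, 10 of them listed at 0 in all 6 libraries. The groups of 3 of the other 25 did not overlap (Sema7a, Ntn1 and Plxna2, the last at 0 reads against 4), where 10.3% of all genes below the filter and above 0 in a library did not.

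Other genes of the pathway were read from 2 lists, co-receptors and further cues (54 genes) and intracellular effectors (70 genes). Both lists were chosen with earlier results of these data known. Their shares of called genes therefore describe the lists and do not test them. Of 27 co-receptors and cues tested, 3 rose (11.1%) and 2 fell (7.41%), with a median log2 difference of -0.03, where 4.36% and 4.82% of all genes tested did. Ptprf, a receptor phosphatase of the LAR type that binds heparan and chondroitin sulfate proteoglycans, fell most. It had 41.4, 39.1 and 35.6 FPKM in si-NC and 14.6, 16.6 and 18.5 FPKM in si-circRtn4, with no overlap, a log2 difference of -1.18 (SE 0.10, adjusted p = 0.0018). That call was kept in all 16 alternatives.

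Dscaml1, an adhesion molecule related to the netrin receptor Dscam, had 4.42, 4.66 and 5.25 FPKM in si-NC and 2.40, 1.86 and 2.73 FPKM in si-circRtn4 (log2 difference -0.80, SE 0.12, adjusted p = 0.0103). Tenm4, a teneurin that binds latrophilins, had 2.84, 1.83 and 3.15 FPKM in si-NC and 8.90, 5.15 and 5.53 FPKM in si-circRtn4 (log2 difference 1.05, SE 0.21, adjusted p = 0.0254). Both genes had groups that stood apart. The Tenm4 call was lost without si-NC 1, si-NC 2 or si-circRtn4 1 (adjusted p up to 0.0738) and with no filter (0.102). The Dscaml1 call was lost only with no filter (0.0503). The other 2 that rose, named after their values were seen, were the adhesion molecule Nfasc and the latrophilin Adgrl2 (log2 differences 0.78 and 0.59). Neo1, the relative of Dcc that also binds netrins, had 20.3, 18.1 and 19.3 FPKM in si-NC and 20.1, 16.2 and 17.8 FPKM in si-circRtn4 and was not called (adjusted p = 0.589), so a Dcc-type netrin receptor was expressed although Dcc was listed at 0.

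Of 60 effectors tested, 5 rose (8.33%) and 3 fell (5.0%), with a median log2 difference of 0.04, against the same 4.36% and 4.82% over all genes. Fyn, a Src family kinase that acts below plexins, Dcc and Eph receptors, had 13.3, 12.3 and 14.8 FPKM in si-NC and 25.6, 25.2 and 23.7 FPKM in si-circRtn4. All 3 si-circRtn4 libraries were higher, by 0.84 on the log2 scale (SE 0.084, adjusted p = 0.0028), in all 16 alternatives. Ablim1, an actin-binding protein, had 10.4, 11.9 and 10.8 FPKM in si-NC and 5.91, 5.70 and 6.69 FPKM in si-circRtn4 (log2 difference -0.76, SE 0.087, adjusted p = 0.0035). Mical1, an enzyme that oxidizes actin below plexins, had 3.36, 3.23 and 4.54 FPKM in si-NC and 6.30, 6.97 and 7.09 FPKM in si-circRtn4 (log2 difference 0.73, SE 0.12, adjusted p = 0.0118). Its call was lost without si-circRtn4 2 (adjusted p = 0.0504) and with no filter (0.0553). The other effectors called, named after their values were seen, were Rnd1, Ssh1 and Gipc1, which rose, and Pitpna and Chn2, which fell.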

How the data were processed

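Total RNA of 6 N2a libraries was sequenced, 3 for each siRNA, and the sample titles gave each library its group and replicate number. The values were deposited as FPKM by the authors, beside each gene's length and coordinates. The submitters' processing notes name Bowtie 0.12.2 with mm8 and mm9, whereas 72 of the 73 members and 53499 of 54409 genes found in GENCODE M21 (GRCm38) had the same start and end there. All coordinates are those of GRCm38. The counter, and whether strand was used, are not given in the sources used here, so genes that share exon bases are uncertain. The table holds 6 further columns of values, which were not used.

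Whole reads were recovered for 100% of values from the steps of FPKM times length (tolerance 0.1 read), which gave the depths. The test used limma 3.58.1 (R 4.3.3; lmFit, eBayes with trend) on log2(FPKM + 1) for the 12749 genes that averaged 1 FPKM or more, with Benjamini-Hochberg adjustment over them. Single genes below the filter were given a two-sided exact permutation test, with 0.1 as the smallest p. Tables and plots were made in Python 3.11.15 (pandas 2.3.3, numpy 2.4.6, matplotlib 3.10.9, scipy 1.17.1). In simulated data with a fold of 2 and a set dispersion of 0.01, limma recovered 88.1% of 194 changed genes among 12757 tested. Of its calls, 5.52% were false. With the block, 86.6% were recovered and 8.70% of calls were false. The simulated libraries held no pairs, so these values cannot show what the block does in paired libraries. Recovery of folds under 2 was not simulated.

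Deviations from the group means correlated at 0.19 to 0.331 between libraries of the same replicate number and at most 0.009 otherwise. The pairing thus rests on the data and not on the labels. The main test left it out and the block was an alternative, so calls and adjusted p-values are without the block unless stated. Alternatives were other pseudocounts (0.1 and 0.5), no filter or a mean of 5 FPKM, TPM with and without Gm23935, quantile normalization, limma-voom on the recovered reads, eBayes without trend, the block, and each library left out. Members are named by adjusted p, by the 10 largest changes and as the most abundant gene of each family. The members and lists were chosen with earlier results of these data known. The siRNA sequence comes from the study's supplement, with the guide strand assumed, and sites were searched on the transcript strand only.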

Additional observations from a re-analysis of the deposited data

How the results depend on the processing

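Of the 5 members called, only Unc5a kept its call in all 16 alternatives. Outside the members, Ptprf, Fyn, Ablim1 and Chd5 also kept theirs in all 16. With all genes above 0 tested, 1 member was called higher and 1 lower, 1 co-receptor or cue higher and 1 lower, and 1 effector higher. Over all genes, that fit called 210 higher and 261 lower, where the main fit called 556 and 615. With a mean of at least 5 FPKM, 1 co-receptor or cue was called higher, 1 lower, and 5 effectors lower. Under TPM, 1 member was called lower, 5 co-receptors or cues higher and 11 effectors higher, and TPM without Gm23935 gave 1 member lower. Limma-voom on the recovered reads called 5 members lower, 4 co-receptors or cues lower, 11 effectors higher and 7 lower, and eBayes without trend gave 3 effectors higher. With the replicate block (paired libraries), 8 members, 5 co-receptors or cues and 9 effectors were called lower and 12 effectors higher, and Rtn4 was called. For the members named by rule, the block changed only the calls of Plxna1 and Unc5c.

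The 6 fits without 1 library each gave 0 to 1 member called higher and 1 to 3 lower, 1 to 3 co-receptors or cues higher and 2 lower, and 1 to 3 effectors higher and 2 to 4 lower. Over all genes, those fits called 163 to 407 higher and 217 to 419 lower. Across them the log2 differences were 0.37 to 0.50 for Plxnc1 and 0.44 to 0.56 for Sema6d. They were -0.70 to -0.47 for Epha10 and -0.55 to -0.38 for Plxnd1. The direction turned for 3 genes near 0: Ephb3 under quantile normalization (-0.016) and in fits without 1 library (-0.21 to 0.26), Ntng2 (-0.11 to 0.13) and Sema4c (-0.051 to 0.050). For the named members, 252 of the values kept their direction and their side of the threshold. A call was lost in 29 values and gained in 8, and the direction turned in 8. The causes were not tested. With 3 libraries a group, each of the 4 member calls other than Unc5a was lost in 4 to 6 of the 6 fits without 1 library, and depth limits genes below 1 FPKM, such as Ntn1 with 48 and 6 reads. The floor of 3 reads covers counting error only, and the 95% intervals cover the spread between these libraries.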
